A study of Gallus gallus with 24 samples.

Results

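The chicken genes described here encode receptors for serotonin (HTR), dopamine (DRD), noradrenaline and adrenaline (ADRA, ADRB), acetylcholine (muscarinic CHRM and nicotinic CHRN), neuropeptide Y (NPY1R to NPY7R), the RFamide peptide QRFP (QRFPR) and galanin (GALR). They were chosen by gene name, and 55 rows of the count table carried such a name. Of these, 45 reached at least 10 counts in 3 or more libraries and are the members, out of 24154 genes in the table. They are 10 of 13 serotonin, 10 of 14 nicotinic, 8 of 9 adrenergic, 6 of 6 neuropeptide Y, 5 of 5 dopamine and 4 of 4 muscarinic receptor genes, with QRFPR and 1 of 3 galanin receptor genes. The libraries came from left and right gonads of female Leghorn embryos at embryonic day (E) 5, 6.5, 8 and 9.5, with 3 libraries for each side and stage and 24 in all. All groups share the Leghorn background, and the labels name no treatment. A hen's ovary forms from the left gonad while the right one regresses, and the study set left against right as both developed. Whether the 3 libraries of a group stem from separate embryos, from pools or from repeated preparations is not stated, so p-values here reflect only how far these samples differ among themselves, and that spread may be technical.

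Most of these receptors are G protein-coupled receptors, single proteins that span the membrane and pass a ligand's signal to a G protein inside the cell. Receptors that couple to Gi lower cyclic AMP, those that couple to Gs raise it, and those that couple to Gq release calcium. The nicotinic subunits are the exception, since their protein subunits assemble into an ion channel that acetylcholine opens. The families are best known from neurons, autonomic ganglia, the adrenal medulla and smooth muscle. Receptors for noradrenaline, serotonin and acetylcholine are also known from the mammalian ovary.

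Totals per library ran from 15078282 counts in E5 right library 3 to 19970859 in E9.5 right library 2. Levels are CPM, counts scaled to a common library total after TMM correction, without a correction for gene length, so levels were compared between samples and never between genes. Genes of pre-granulosa cells, the supporting cells of the ovary, were measured in every library, with a summed level of 124 to 173 CPM at E5 and 2706 to 3676 CPM at E9.5 over 7 genes. Marker lists of other tissues stood high in some libraries. The summed level of 11 mesonephros genes was 2862 CPM in E6.5 right library 3, 1993 CPM in E8 right library 1 and 2546 CPM in E9.5 right library 2, against a lowest value of 112 CPM in E9.5 left library 3. ALB, the liver gene for albumin, was at 1008 CPM in E8 right library 3 and 170 CPM in E6.5 left library 3, against 10.1 CPM or less elsewhere. The summed level of 11 liver genes was 1705 to 3743 CPM in right at E8 and 1034 to 3019 CPM at E9.5. In left it was 580 to 843 CPM and 608 to 821 CPM, and E6.5 right library 3 had 2251 CPM. Results on receptors that move with such lists are given with these values beside them.

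The left gonad had more transcript of a small set of receptors at every stage examined. The set was larger at E8 and E9.5, where a larger share of all genes tested was called higher in left too. Counts were tested across all 16694 genes that passed a filter on low counts with edgeR's quasi-likelihood test, and an edgeR adjusted p is that test's p after Benjamini-Hochberg adjustment over all of them. A gene is called where this value is under 0.05. All 45 members passed the filter. At E5, 5 members were called, where 2.94% of all genes tested were called. They were 3 higher and 2 lower in left, beside 1.92% higher and 1.02% lower among all genes. At E6.5 there were 5 again (3.24% of all genes), 4 higher and 1 lower (2.67% and 0.575%). At E8, 15 were called (14.3% of all genes), 12 higher and 3 lower in left (7.54% and 6.71%). At E9.5 there were 15 (13% of all genes), 8 higher and 7 lower (5.13% and 7.87%). The same shares over all genes stand for the other gene lists tested by side below. Left and right libraries were fully apart for 18 members at E5 (18.5% of all genes), 15 at E6.5 (15.6%), 26 at E8 (39.3%) and 18 at E9.5 (26.2%). The median log2 difference of left from right over the members was -0.17 at E5, 0.09 at E6.5, 0.25 at E8 and 0.08 at E9.5, beside -0.0060, -0.0034, -0.04 and -0.01 over all genes tested. In bulk tissue a difference in the number of cells that carry a transcript and a difference in transcript per cell cannot be told apart, here and in every comparison below.

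Altogether 21 of the 45 members were called at 1 or more stages, 14 higher and 7 lower in left, and no member was called in both directions. Among all genes tested 22.7% were called at 1 or more stages, 11% higher and 11.9% lower. NPY6R, QRFPR and NPY2R were called at all 4 stages, as were 0.479% of all genes. Another 15 were called at E8 or E9.5 and at neither earlier stage (17.8% of all genes). Of the 15 called at E8, 10 were called again at E9.5, or 66.7% of each list, beside 46.3% of the E8 calls and 50.7% of the E9.5 calls over all genes. The counts are a description, since CHRM5, GALR1, NPY4R and NPY6R passed the threshold on counts through the left libraries, where they are high. Without these 4 members 11 were called higher and 7 lower at 1 or more stages, with 2 higher and 2 lower at E5, 3 and 1 at E6.5, 9 and 3 at E8, and 5 and 7 at E9.5. Each count rested in part on single libraries. It fell to 3 at E5 without left library 2, left library 3 or right library 1, and to 3 at E6.5 without left library 2, left library 3 or right library 1. At E6.5 it was 2 without right library 3. With the replicate number as a block the count at E5 was 9, 4 higher and 5 lower in left, where 4.88% of all genes were called. The members gained were ADRA1B (log2 difference -1.34, edgeR adjusted p = 0.0126), CHRM2 (-0.77, 0.0144), HTR1B (-0.47, 0.0223) and CHRNA4 (0.73, 0.0402). In that fit HTR1B was thus called in both directions, lower in left at E5 and higher later. At E8 it was 9 without right library 1 or right library 2, and at E9.5 it was 7 without right library 2, the library with the high mesonephros sum.

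**Figure D1:**
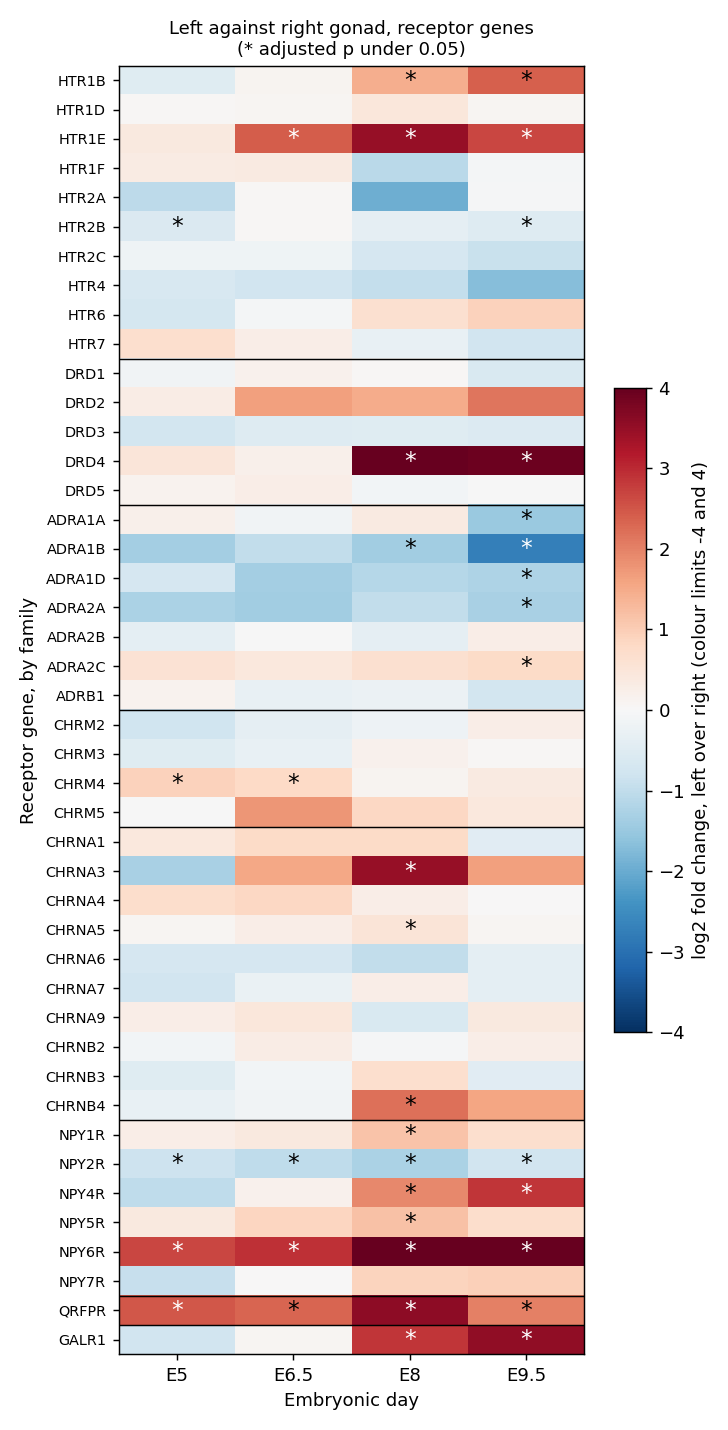
Colour map of the log2 fold change of left over right for the receptor genes (rows, by family) at each stage (columns, embryonic day), with red for higher in left, blue for lower in left and an asterisk where the adjusted p is under 0.05. NPY6R and QRFPR are red at all 4 stages and NPY2R is blue at all 4, while HTR1B and DRD4 turn red at E8 and the adrenergic genes are mostly blue.

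NPY6R and QRFPR were called higher in left at every stage. NPY6R encodes the Y6 subtype of neuropeptide Y receptor, whose human counterpart is a pseudogene, and QRFPR encodes the receptor for the peptide QRFP. At E5 NPY6R was at 1.93, 6.01 and 2.99 CPM in the left gonads, against 0.388, 0.888 and 0.394 CPM in the right ones. At E6.5 it was at 3.06, 1.67 and 1.17 CPM in left and 0.430, 0.189 and 0.132 CPM in right. At E8 the left libraries had 0.974, 1.37 and 1.04 CPM and the right ones 0.0631, 0.0642 and 0 CPM. At no stage did the sides overlap, and at E5 left library 2 stood above the other left libraries. By E9.5 left had 0.298, 0.769 and 0.413 CPM and right had 0, 0.0522 and 0 CPM.

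The log2 difference of left from right for NPY6R was 2.68 ± 0.53 (SE) at E5 (edgeR adjusted p = 0.0060), 2.92 ± 0.59 at E6.5 (0.0072), 4.55 ± 0.79 at E8 (0.00086) and 4.20 ± 0.95 at E9.5 (0.0075). The later values stand on very few right counts. At E8 there were 56 NPY6R counts in left against 2 in right, a ratio of 27.6 with a 95% counting interval of 7.30 to 234, and at E9.5 there were 27 against 1, a ratio of 25.0 with an interval of 4.11 to 1022. These intervals cover counting error only. NPY6R missed the threshold at E5 without left library 2 (log2 difference 2.12, edgeR adjusted p = 0.053) and at E6.5 without right library 3 (2.61, 0.060).

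QRFPR was at 5.19, 6.90 and 5.53 CPM in the left gonads at E5, against 0.711, 1.24 and 1.18 CPM in the right ones. At E6.5 it was at 1.59, 1.13 and 1.23 CPM in left and 0.430, 0 and 0.330 CPM in right. The sides did not overlap, and the left mean at E6.5 was close to the right mean at E5 (1.32 ± 0.241 against 1.05 ± 0.291 CPM, SD, n = 3 each). The left libraries at E8 had 1.46, 1.43 and 2.49 CPM and the right ones 0, 0.385 and 0.0564 CPM. At E9.5 left had 1.13, 1.15 and 1.65 CPM and right had 0.380, 0.209 and 0.392 CPM. Every left library was above every right one at these stages too.

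In log2 terms QRFPR differed between left and right by 2.48 ± 0.51 (SE) at E5 (edgeR adjusted p = 0.0088), 2.34 ± 0.62 at E6.5 (0.043), 3.58 ± 0.67 at E8 (0.0015) and 2.005 ± 0.60 at E9.5 (0.032). Leaving out 1 library ended several of these calls. At E5 the value without right library 1 was 2.26 (edgeR adjusted p = 0.059), and at E6.5 it lay between 1.77 and 2.96 whichever of the 6 libraries was left out (0.058 to 0.12). At E8 it was 5.61 without right library 2. At E9.5 the threshold was missed without left library 1, 2 or 3 (2.13, 2.12 and 1.81, with edgeR adjusted p of 0.055, 0.053 and 0.093) and without right library 2 (1.79, 0.12).

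Germ cell and surface epithelium genes stood higher in left beside these receptors. The summed level of 11 germ cell genes was 363, 493 and 423 CPM in left and 152, 211 and 122 CPM in right at E5, and 10 of the 11 were called higher in left at E5, at E6.5 and at E8, with 5 at E9.5. The sum of 8 surface epithelium genes was 1725, 2254 and 2431 CPM in left against 1373, 1398 and 1382 CPM in right at E5, and 2 of the 7 tested were called higher in left there. UPK3B, a defining gene of mesothelium in that list, had no count in any right library and at most 0.181 CPM in left. From E5 to E9.5 all 11 germ cell genes were called as rising in right. In left 8 of the 11 rose and 1 fell. Over all genes tested 21.5% rose and 16.1% fell in right, and 18.2% rose and 16% fell in left. NPY6R and QRFPR fell on both sides. Of the 7 surface epithelium genes, 4 fell and 1 rose in left, and 3 fell and 1 rose in right. Their list summed to 1471, 1310 and 1107 CPM in left and 811, 859 and 687 CPM in right at E9.5. The part of these cell types in the left-right difference was not tested.

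**Figure D2:**
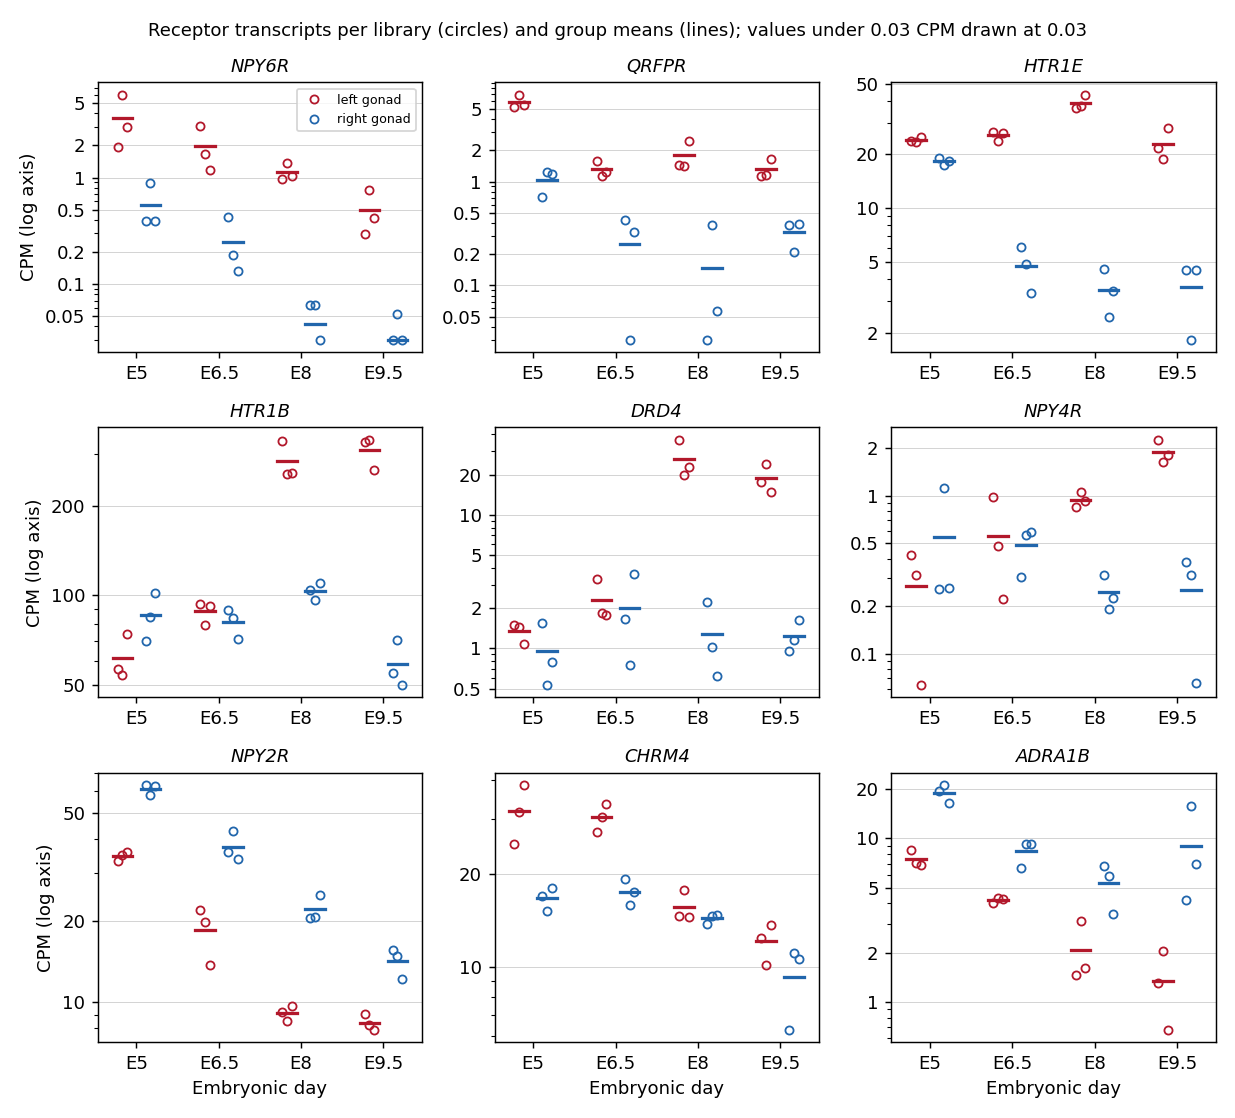
CPM on a log axis for 9 receptor genes by embryonic day, with a circle for each library, a line for each group mean, left gonads in red and right gonads in blue, and values under 0.03 CPM drawn at 0.03. NPY6R and QRFPR are higher in left throughout, HTR1E separates at E6.5, HTR1B, DRD4 and NPY4R separate at E8, NPY2R and ADRA1B are lower in left, and CHRM4 is higher in left at E5 and E6.5.

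NPY2R, the Gi-coupled Y2 receptor that on nerve endings acts as a presynaptic autoreceptor, was lower in left at all 4 stages. At E5 it was at 33.0, 34.9 and 35.7 CPM in left and 63.3, 58.1 and 62.6 CPM in right. At E6.5 left had 22.0, 19.7 and 13.7 CPM and right had 35.9, 42.7 and 33.8 CPM. The sides stood well apart at each stage, while both went down together. At E8 left had 9.19, 8.50 and 9.72 CPM and right had 20.5, 20.6 and 24.9 CPM. By E9.5 left had 9.06, 8.24 and 7.90 CPM and right had 15.6, 14.8 and 12.2 CPM. The log2 difference of left from right was -0.83 ± 0.14 (SE) at E5 (edgeR adjusted p = 0.0018), -1.02 ± 0.14 at E6.5 (0.00027), -1.27 ± 0.15 at E8 (1.3e-05) and -0.76 ± 0.15 at E9.5 (0.0026). None of these calls was lost when any 1 library was left out. Among 8 macrophage genes, 3 were called lower in left at E5, 4 at E8 and 3 at E9.5 (1.02%, 6.71% and 7.87% of all genes). At E6.5 edgeR called 0 of the 8, with 3 at an unadjusted p under 0.05 and 2 with DESeq2. The 8 summed to 97.2 to 114 CPM in left and 148 to 160 CPM in right at E5, and to 69.8 to 83.2 and 97.2 to 103 CPM at E6.5. The sums were 58.1 to 68.5 CPM in left and 99.1 to 109 CPM in right at E8, and 80.1 to 82.8 and 116 to 175 CPM at E9.5. Their part in the NPY2R difference was not tested.

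NPY4R, the Y4 receptor that prefers pancreatic polypeptide, was higher in left at E8 and E9.5. At E5 it stood at 0.422, 0.316 and 0.0635 CPM in left and 0.259, 1.12 and 0.262 CPM in right, which overlapped. At E8 left had 0.852, 1.06 and 0.926 CPM and right had 0.315, 0.193 and 0.226 CPM. At E9.5 left had 2.26, 1.65 and 1.81 CPM and right had 0.380, 0.313 and 0.0654 CPM. The sides were clear of each other at both later stages, with 47 counts in left against 12 in right at E8 and 103 against 13 at E9.5. The log2 difference of left from right was 1.92 ± 0.63 (SE) at E8 (edgeR adjusted p = 0.048) and 2.86 ± 0.61 at E9.5 (0.0049). The E8 call was lost whichever library was left out (1.795 to 2.16, 0.085 to 0.14), and the E9.5 call was kept each time.

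NPY1R and NPY5R encode the Y1 and Y5 receptors, and the RefSeq gene order of the assembly GRCg7b lists them as neighbours. NPY1R at E8 was at 3.71, 3.85 and 3.76 CPM in left and 1.33, 1.61 and 2.20 CPM in right, a log2 difference of 1.13 ± 0.30 (SE, edgeR adjusted p = 0.016). NPY5R at E8 was at 2.25, 3.10 and 3.01 CPM in left and 0.631, 1.61 and 1.47 CPM in right, a log2 difference of 1.17 ± 0.26 (0.0054). Both separated the sides fully at E8, and NPY5R did so at every stage, with a lowest left library of 5.59 CPM against a highest right one of 5.21 CPM at E5. At the other stages neither was called, with differences of 0.27, 0.38 and 0.68 for NPY1R and 0.38, 0.85 and 0.69 for NPY5R at E5, E6.5 and E9.5. With the replicate block both were called at E9.5 (0.73 and 0.70, edgeR adjusted p = 0.0333 and 0.0262), and NPY5R also at E6.5 (0.85, 0.0327). The NPY1R call at E8 was lost without right library 1 (1.01, edgeR adjusted p = 0.074) or right library 2 (1.10, 0.059). NPY7R, a subtype that mammals lack, was not called on side at any stage.

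GALR1, a Gi-coupled galanin receptor, had few counts and separated the sides late. At E8 it was at 0.609, 0.621 and 0.694 CPM in left and 0, 0.128 and 0.113 CPM in right, and at E9.5 at 0.596, 0.769 and 0.310 CPM in left and 0, 0 and 0.131 CPM in right. The log2 difference of left from right was 2.87 ± 0.79 (SE) at E8 (edgeR adjusted p = 0.019) and 3.56 ± 0.89 at E9.5 (0.014). In counts this was 32 against 4 at E8, and 30 against 2 at E9.5, a ratio of 13.9 with a 95% counting interval of 3.52 to 119.7. It missed the threshold at E8 without right library 1 (2.37, edgeR adjusted p = 0.081) and at E9.5 without right library 2 (2.998, 0.070), and read 6.23 at E9.5 without right library 3. At E5 and E6.5 the sides overlapped.

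Among the serotonin receptors, HTR1E and HTR1B became left-high by different routes. HTR1E encodes a Gi-coupled receptor that rats and mice lack. At E5 HTR1E stood at 23.8, 23.4 and 25.04 CPM in left and 19.0, 17.5 and 18.4 CPM in right. At E6.5 left had 26.7, 23.9 and 26.5 CPM and right had 6.02, 4.85 and 3.36 CPM. The left libraries held their level while the right ones were far below. At E8 left had 36.4, 37.5 and 43.3 CPM and right had 4.54, 2.44 and 3.44 CPM. By E9.5 left had 21.6, 18.8 and 28.0 CPM and right had 4.4999, 1.83 and 4.51 CPM. The sides did not overlap at any stage. Left exceeded right on the log2 scale by 0.39 ± 0.24 (SE) at E5 (edgeR adjusted p = 0.61), 2.43 ± 0.26 at E6.5 (1.7e-05), 3.49 ± 0.28 at E8 (1.4e-07) and 2.67 ± 0.27 at E9.5 (2.8e-06). Each of the 3 later calls was kept under every setting tried.

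HTR1B, a Gi-coupled receptor that on nerve endings restrains transmitter release, was high in left from E8. At E5 it was at 56.4, 54.0 and 74.2 CPM in left and 70.3, 84.8 and 102 CPM in right. At E6.5 left had 93.5, 79.3 and 92.2 CPM and right had 89.0, 83.7 and 71.3 CPM. The sides overlapped at both stages, with right tending higher at E5. At E8 left had 332, 257 and 259 CPM and right had 104, 96.5 and 110.1 CPM. At E9.5 left had 329, 334 and 263 CPM and right had 54.7, 70.9 and 49.9 CPM. Here every left library was more than 2 times as high as any right one. On the log2 scale left minus right was -0.48 ± 0.16 (SE) at E5 (edgeR adjusted p = 0.13), 0.12 ± 0.16 at E6.5 (0.80), 1.45 ± 0.16 at E8 (9.2e-06) and 2.398 ± 0.16 at E9.5 (1.9e-08). Both late calls were kept under every setting tried.

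HTR2B, a Gq-coupled receptor known from smooth muscle and heart, was the serotonin receptor gene called lower in left. At E5 it was at 19.7, 17.02 and 16.3 CPM in left and 30.9, 23.7 and 23.7 CPM in right. At E9.5 it was at 8.94, 10.1 and 8.26 CPM in left and 16.0, 12.3 and 10.98 CPM in right. The sides did not overlap at these stages, and the log2 differences were small, -0.56 ± 0.14 (SE) at E5 (edgeR adjusted p = 0.036) and -0.52 ± 0.15 at E9.5 (0.025). The E5 call was lost without left library 2 (-0.53), left library 3 (-0.52), right library 1 (-0.44) or right library 3 (-0.62), at edgeR adjusted p of 0.14, 0.14, 0.18 and 0.058. The E9.5 call was lost without left library 1 (-0.48), left library 3 (-0.45), right library 1 (-0.33) or right library 2 (-0.53), at 0.080, 0.099, 0.13 and 0.059. The other 7 serotonin receptor genes, HTR1D, HTR1F, HTR2A, HTR2C, HTR4, HTR6 and HTR7, were not called on side at any stage, though HTR2C was at E9.5 with the replicate block (-0.84, edgeR adjusted p = 0.0346).

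DRD4, a Gi-coupled dopamine receptor, was the 1 of 5 dopamine receptor genes called on side, at E8 and E9.5. At E5 DRD4 was at 1.51, 1.46 and 1.08 CPM in left and 1.55, 0.533 and 0.787 CPM in right. At E6.5 left had 3.30, 1.85 and 1.78 CPM and right had 1.66, 0.756 and 3.63 CPM. These stages overlapped. By E8 left had 36.5, 19.9 and 22.7 CPM and right had 2.21, 1.03 and 0.621 CPM. At E9.5 left had 17.5, 23.8 and 14.9 CPM and right had 0.951, 1.15 and 1.63 CPM. At both, the lowest left library stood far above the highest right one. Left minus right on the log2 scale was 0.50 ± 0.53 (SE) at E5 (edgeR adjusted p = 0.87), 0.20 ± 0.48 at E6.5 (0.90), 4.36 ± 0.51 at E8 (1.4e-05) and 3.91 ± 0.50 at E9.5 (4.9e-05), and both late calls were kept under every setting tried. DRD1, DRD2, DRD3 and DRD5 were not called on side. DRD2 came closest at E9.5, with 0.645 ± 0.472 CPM in left and 0.149 ± 0.203 CPM in right (SD, n = 3 each, edgeR adjusted p = 0.079).

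The muscarinic gene CHRM4, whose receptor couples to Gi, was called higher in left at E5 and E6.5 and at neither later stage. Its side difference was not called as changed between E5 and E9.5. At E5 it was at 25.0, 31.6 and 38.6 CPM in left and 17.004, 15.2 and 18.0 CPM in right, and at E6.5 at 27.2, 30.5 and 33.5 CPM in left and 19.2, 15.8 and 17.4 CPM in right. No right library reached the lowest left one at these stages. At E8 left had 14.6, 17.7 and 14.5 CPM and right had 13.8, 14.6 and 14.7 CPM, which overlapped. Left exceeded right by a log2 difference of 0.92 ± 0.18 (SE) at E5 (edgeR adjusted p = 0.0068), 0.80 ± 0.18 at E6.5 (0.019), 0.12 ± 0.18 at E8 (0.72) and 0.37 ± 0.19 at E9.5 (0.20). The E5 call was lost without left library 3 (0.74, edgeR adjusted p = 0.070). The E6.5 call was lost without left library 2 (0.78), left library 3 (0.72), right library 1 (0.87), right library 2 (0.73) or right library 3 (0.78), at edgeR adjusted p of 0.086, 0.081, 0.0502, 0.086 and 0.10. CHRM2, CHRM3 and CHRM5 were not called on side at any stage in the fit without the replicate block.

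Of the nicotinic subunit genes, CHRNA3, CHRNB4 and CHRNA5 were called higher in left at E8, which were the only side calls among the 10 at the 4 stages in the fit without the replicate block. Their proteins form the nicotinic receptor of autonomic ganglia and chromaffin cells, and the 3 genes lie next to each other in the RefSeq gene order of GRCg7b. At E8 CHRNA3 was at 14.6, 25.1 and 38.4 CPM in left and 3.22, 0.514 and 3.22 CPM in right, a log2 difference of 3.48 ± 0.80 (SE, edgeR adjusted p = 0.0068). CHRNB4 was at 5.11, 11.2 and 11.5 CPM in left and 2.33, 1.61 and 2.09 CPM in right, a difference of 2.20 ± 0.61 (0.021). CHRNA5 was at 14.7, 18.2 and 15.7 CPM in left and 10.5, 11.9 and 11.3 CPM in right, a difference of 0.53 ± 0.17 (0.037). The sides were apart for each of the 3, and CHRNA5 differed least. The CHRNB4 call was lost without any library other than left library 1 (2.04 to 2.35, edgeR adjusted p = 0.051 to 0.081), and so was the CHRNA5 call (0.44 to 0.58, 0.055 to 0.14).

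Chromaffin genes, those of the adrenaline-making cells of the adrenal medulla, moved with CHRNA3 among the left libraries at E6.5, E8 and E9.5. The summed level of 12 chromaffin and sympathetic genes at E8 was 783, 1362 and 1975 CPM in left and 236, 264 and 261 CPM in right, and 9 of the 12 were called higher in left. At E9.5 CHRNA3 was at 2.92, 16.2 and 34.8 CPM in left libraries whose chromaffin sum was 443, 773 and 1226 CPM, against 4.75, 3.71 and 9.02 CPM in right libraries whose sum was 234, 299 and 283 CPM. At E6.5 the left libraries had 1.96, 10.4 and 23.1 CPM of CHRNA3 and sums of 247, 493 and 1153 CPM, and the right ones 3.81, 5.17 and 3.03 CPM and sums of 178, 266 and 253 CPM. At each of these stages the left library with the most CHRNA3 was the one with the highest chromaffin sum and the one with the least had the lowest. CHRNB4 ran in this left library order at E8 and E9.5 and in the reverse order at E6.5. There it was at 8.38, 6.39 and 5.85 CPM in left and 10.6, 10.5 and 1.52 CPM in right. CHRNA5 ran in this order at none of these stages. At E5, where the sums were 324, 274 and 263 CPM in left against 410, 609 and 414 CPM in right, CHRNA3 was at 3.62, 2.09 and 2.73 CPM in left and 5.95, 8.35 and 6.56 CPM in right (log2 difference -1.30 ± 0.77, edgeR adjusted p = 0.56). DRD4 did not follow this order at E8, since its highest left value of 36.5 CPM was in the library with the lowest chromaffin sum, and HTR1B did not either, with 332 CPM there. In the right libraries at E8 and at E9.5 the least CHRNA3 was in the library with the highest chromaffin sum. No gene of the chromaffin list was at 0 in a whole group. A list of 10 neuron genes ran in the same left library order. It summed to 270, 579 and 787 CPM in left against 281, 267 and 243 CPM in right at E6.5, and to 635, 704 and 1124 CPM in left against 301, 242 and 351 CPM in right at E8. At E9.5 the sums were 197, 333 and 625 CPM in left and 318, 240 and 260 CPM in right. Of the 10 neuron genes 2 were called higher in left at E6.5, 6 at E8 and 1 at E9.5, and none lower. The part of chromaffin cells and of neurons in the nicotinic differences was not tested.

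**Figure D3:**
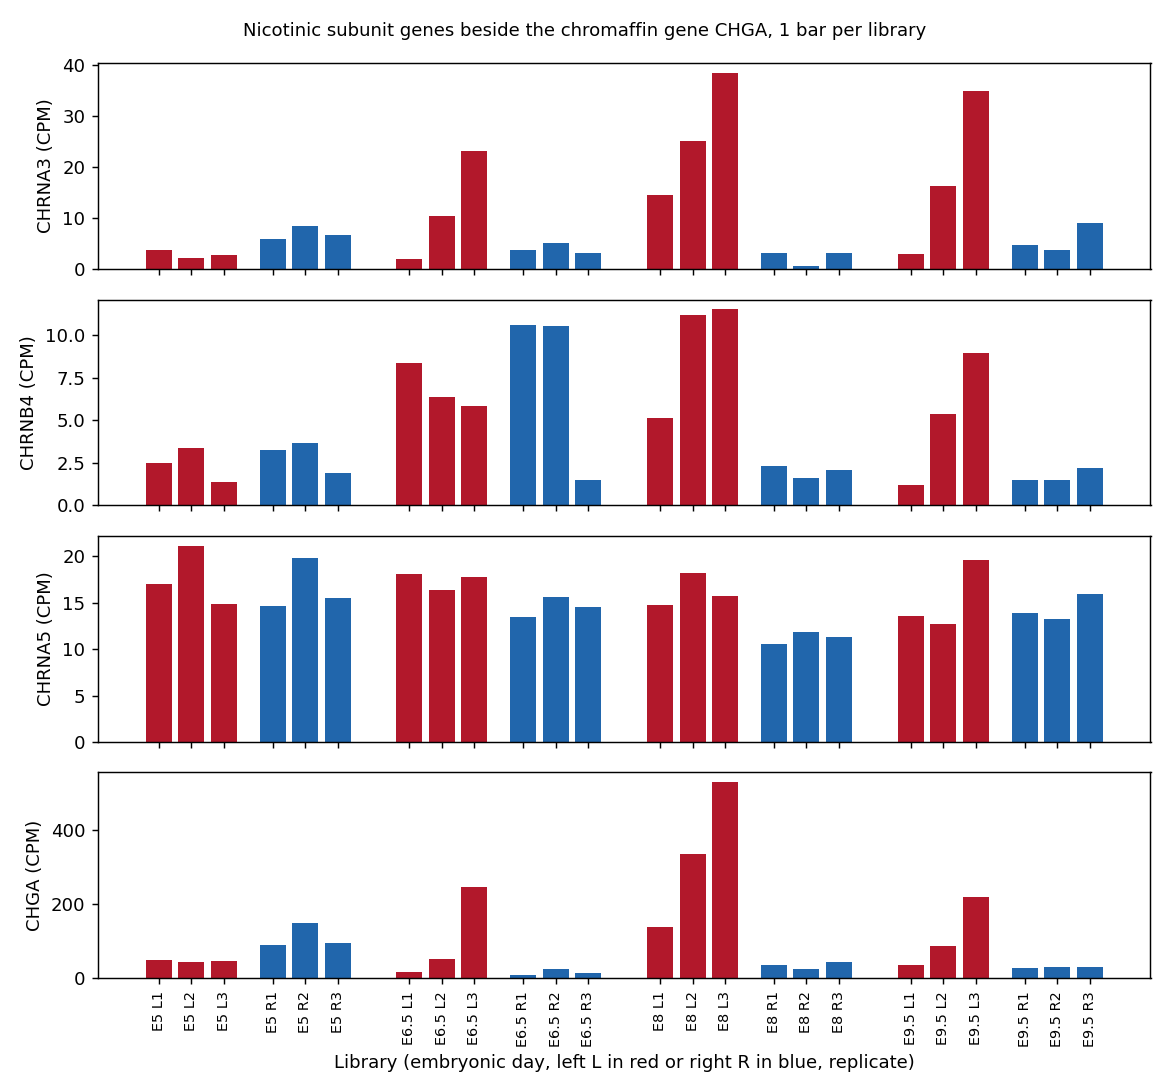
CPM in each of the 24 libraries (bars, left in red and right in blue, ordered by embryonic day) for the nicotinic subunit genes CHRNA3, CHRNB4 and CHRNA5 and, in the lowest panel, the chromaffin gene CHGA. The tallest CHRNA3 and CHGA bars at E6.5, E8 and E9.5 are in the same left libraries, while CHRNA5 is near the same height in most libraries.

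The adrenergic genes leaned the other way, with 5 of 8 called lower in left at E9.5 and 1 called higher. ADRA1B, for a Gq-coupled receptor of smooth muscle and liver, was at 1.46, 3.10 and 1.62 CPM in left at E8 and 6.75, 5.91 and 3.44 CPM in right, and at 1.31, 2.03 and 0.671 CPM in left at E9.5 and 4.18, 15.7 and 6.99 CPM in right. The sides did not overlap at these stages, and the right libraries at E9.5 spread widely. Nor did they overlap earlier. At E5 ADRA1B was at 8.50, 7.09 and 6.93 CPM in left and 19.5, 21.3 and 16.4 CPM in right. At E6.5 left had 4.04, 4.30 and 4.24 CPM and right had 6.57, 9.26 and 9.30 CPM. ADRA1B was not called at either stage (log2 difference at E5 -1.345, edgeR adjusted p = 0.0684), but was at E5 with the replicate block (-1.34, 0.0126). The log2 difference of left from right for ADRA1B was -1.38 ± 0.41 (SE) at E8 (edgeR adjusted p = 0.031) and -2.75 ± 0.43 at E9.5 (0.00042). The ADRA1B call at E9.5 was kept with any 1 library left out. At E8 it was lost without left library 1 (-1.16, edgeR adjusted p = 0.14), left library 3 (-1.20, 0.12), right library 1 (-1.15, 0.13) or right library 2 (-1.29, 0.093). Liver genes were also lower in left at E8 and E9.5. A list of 11 summed to 579.7, 774 and 843 CPM in left and 2939, 1705 and 3743 CPM in right at E8, and to 608, 778 and 821 CPM in left and 1034, 3019 and 2204 CPM in right at E9.5. Of the 10 tested, 9 were called lower in left at E8 (6.71% of all genes) and 3 at E9.5 (7.87%). At E5 the list summed to 522, 623 and 617 CPM in left and 658, 644 and 629 CPM in right. There edgeR called 0 of the 10, with 0 at an unadjusted p under 0.05 and 0 with DESeq2. A list of 8 smooth muscle and pericyte genes summed to 420 to 514.5 CPM in left and 555 to 750 CPM in right at E5. At E9.5 the sums were 379 to 481 and 378 to 433 CPM. Of the 8, 1 was called lower in left at each of E5, E6.5 and E8 (1.02%, 0.575% and 6.71% of all genes). At E9.5 edgeR called 0 of them, with 1 at an unadjusted p under 0.05 and 1 with DESeq2. The part of smooth muscle in the ADRA1B difference was not tested. The right libraries ran in the same order for ADRA1B and the liver sum at E9.5 and in another order at E8. For the liver and mesonephros sums they ran in the same order at E6.5 and E9.5 and in another at E5 and E8. Among the right libraries ALB stood high only in E8 right library 3, so the other high liver sums came mostly from other genes of the list. Whether they came from liver tissue was not tested, and neither was the part of such tissue in the ADRA1B difference.

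In the fit without the replicate block ADRA1A, ADRA1D, ADRA2A and ADRA2C were called at E9.5 only. ADRA1A, another Gq-coupled receptor gene, was at 0.179, 0.385 and 0.413 CPM in left and 1.08, 1.10 and 0.588 CPM in right, a log2 difference of -1.47 ± 0.43 (SE, edgeR adjusted p = 0.030). ADRA1D, the third alpha-1 gene, was at 1.31, 2.58 and 1.86 CPM in left and 2.47, 6.73 and 4.44 CPM in right, a difference of -1.25 ± 0.38 (0.038). ADRA2A, for a Gi-coupled receptor that restrains noradrenaline release, was at 14.4, 9.84 and 10.9 CPM in left and 14.2, 46.2 and 26.1 CPM in right, a difference of -1.30 ± 0.39 (0.035). For ADRA1D and ADRA2A the sides overlapped at E9.5, and right library 2 was far above the other right libraries. ADRA2C, also Gi-coupled, went the other way, at 10.8, 12.9 and 13.7 CPM in left and 7.35, 6.68 and 8.04 CPM in right, with no overlap and a difference of 0.76 ± 0.23 (0.032). Each of the 4 calls was lost without any of 4 of the 6 libraries. With the replicate block the ADRA2A difference at E9.5 was -1.17 and the call was lost (edgeR adjusted p = 0.0554). In that fit ADRA1D was also called lower in left at E6.5 (-1.27, 0.0327) and E8 (-1.18, 0.0181), and ADRA2C higher at E8 (0.66, 0.0428). For ADRA2A every left library was below every right one at E5, E6.5 and E8, with 5.53 to 8.62 against 12.3 to 20.7 CPM at E5. Without E9.5 right library 2, and without the block, the E9.5 differences were -1.29 for ADRA1A, -0.81 for ADRA1D, -0.74 for ADRA2A and 0.73 for ADRA2C (edgeR adjusted p = 0.11, 0.23, 0.26 and 0.11). ADRA1A was also lost without left library 1 (-1.18, 0.12), left library 2 (-1.57, 0.063) or right library 1 (-1.34, 0.067), and ADRA1D without left library 1 (-1.02, 0.15), left library 3 (-1.22, 0.099) or right library 3 (-1.26, 0.055). ADRA2A was lost without left library 1 (-1.45, 0.062), left library 2 (-1.16, 0.12) or left library 3 (-1.24, 0.098), and ADRA2C without left library 2 (0.77, 0.078), left library 3 (0.69, 0.10) or right library 1 (0.78, 0.059).

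The mesonephros, the embryonic kidney that lies against the gonad, moved with several of these genes. The summed level of 11 mesonephros genes at E9.5 was 155, 295 and 112 CPM in left and 599.94, 2546 and 1237 CPM in right. Of the 10 tested, 3 were called lower in left there (7.87% of all genes). Their median log2 difference was -3.08, with 9 at an unadjusted p under 0.05 in edgeR and 8 called with DESeq2, in either direction. In right library 2, which had the highest sum, ADRA1B, ADRA1D, ADRA2A and HTR4 were all at their highest of the 6 libraries. At E6.5 ADRA2A was at 8.01, 6.69 and 9.31 CPM in left and 16.1, 10.5 and 36.7 CPM in right, and ADRA1D at 7.65 CPM was also highest in right library 3, whose mesonephros sum was 2862 CPM. HTR4, a Gs-coupled serotonin receptor gene that was called in no comparison, was at 2.09, 2.97 and 2.27 CPM in left and 4.12, 12.8 and 7.12 CPM in right at E9.5. At E8 the order differed, with the highest ADRA2A (26.3 CPM) and HTR4 (9.05 CPM) in right library 2 and the highest mesonephros sum (1993 CPM) in right library 1, where ADRA1B (6.75 CPM) and ADRA1D (4.80 CPM) were highest. At E5 the mesonephros sums were 681, 561 and 198 CPM in left and 773, 1035 and 201 CPM in right. Among the right libraries HTR4 (9.12, 15.7 and 2.03 CPM) and ADRA1B ran in the order of these sums at E5. ADRA2A was highest in right library 2 there and ADRA1D lowest. The part of mesonephric tissue in the adrenergic differences was not tested. ADRA2B and ADRB1 were not called on side at any stage.

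**Figure D4:**
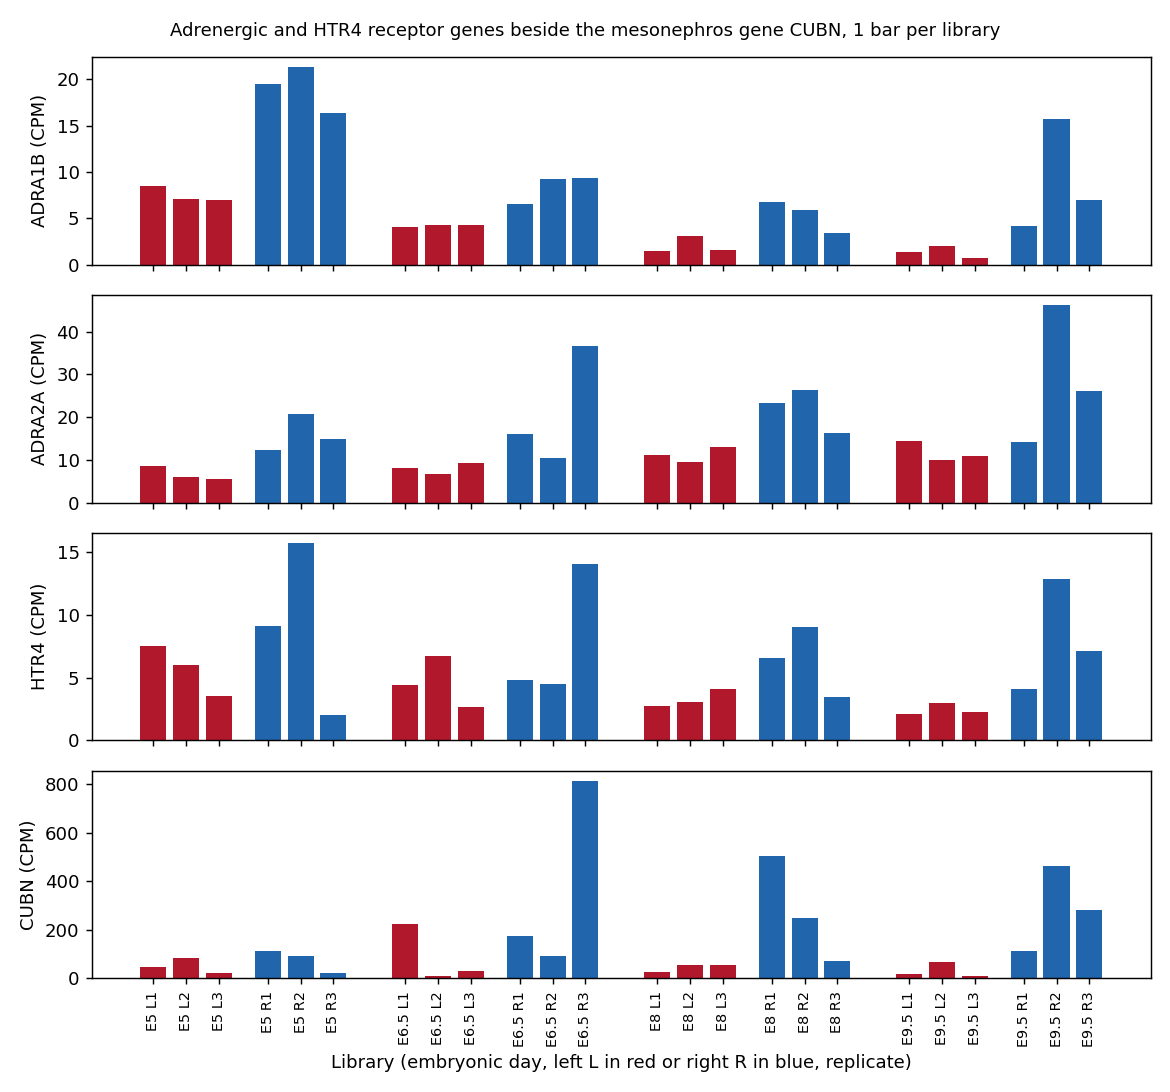
CPM in each of the 24 libraries (bars, left in red and right in blue, ordered by embryonic day) for ADRA1B, ADRA2A and HTR4 and, in the lowest panel, the mesonephros gene CUBN. ADRA2A and HTR4 are the highest of their stage in E6.5 right library 3 and E9.5 right library 2, where CUBN is too. The tallest HTR4 bar of all is in E5 right library 2, at 15.7 CPM, the library with the highest mesonephros sum at E5.

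The side difference of 4 members changed between E5 and E9.5, all toward left. In a test of the left-right difference at E9.5 against that at E5, where 2.2% of all genes were called, these were NPY4R, DRD4, HTR1B and HTR1E. Among all genes the change was toward left for 0.869% and toward right for 1.34%. The change was 3.88 ± 0.90 (SE, log2) for NPY4R (edgeR adjusted p = 0.022), 3.41 ± 0.72 for DRD4 (0.013), 2.87 ± 0.23 for HTR1B (4.8e-07) and 2.28 ± 0.36 for HTR1E (0.0015). The NPY4R value was 2.83 without E5 right library 2 (edgeR adjusted p = 0.14) and 3.77 without E9.5 left library 1 (0.051), and the DRD4 value was 2.91 without E5 right library 1 (0.059). GALR1 had the largest change of any member, 4.32 ± 1.14, and missed the threshold (0.051). For NPY6R, QRFPR and NPY2R the change was 1.52 ± 1.11, -0.47 ± 0.83 and 0.07 ± 0.20 and was not called (0.58, 0.85 and 0.92). With the replicate block CHRM2 was called as well (1.03, edgeR adjusted p = 0.032), against 1.05 and 0.598 without the block.

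Between E5 and E9.5 more receptor genes went down than up on each side. In the left gonad 21 members were called, where 34.2% of all genes were, 8 of them higher and 13 lower at E9.5 (18.2% and 16% of all genes). In the right gonad 22 were called (37.5% of all genes), 5 higher and 17 lower (21.5% and 16.1%), and this count was 14 without E5 right library 2. The stages did not overlap for 25 members in left (45.8% of all genes) and 22 in right (43.2%). The members' median log2 change was -0.15 in left and -0.33 in right, beside 0.0049 and 0.03 over all genes. Lower on both sides were ADRA1B, CHRM4, DRD3, DRD5, HTR2A, HTR2B, NPY2R, NPY6R and QRFPR, which are 69.2% of the 13 called lower in left and 52.9% of the 17 called lower in right. Higher on both sides were CHRM5, CHRNA6 and CHRNA7, or 37.5% of the 8 and 60% of the 5. CHRM5 reached 10 counts in no E5 library and met the threshold on counts through later ones, so its rise is tied to that threshold. With DESeq2 the calls of CHRM5 and CHRNA6 in right were lost. The same overlap over all genes was not worked out, so these percentages describe the members alone.

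HTR2A, for a Gq-coupled serotonin receptor, had one of the steepest falls. Its mean was 0.376 ± 0.231 CPM at E9.5 against 3.997 ± 0.749 CPM at E5 in left, and 0.397 ± 0.349 CPM against 8.35 ± 2.35 CPM in right (SD, n = 3 each). The log2 change was -3.36 ± 0.56 (SE) in left (edgeR adjusted p = 8.0e-05) and -4.37 ± 0.57 in right (4.7e-06). NPY2R fell by near equal amounts on both sides, by 2.04 ± 0.15 in left (1.7e-09) and 2.11 ± 0.15 in right (9.2e-10). NPY6R fell by 2.86 ± 0.53 in left (0.00024), and in right the libraries held 1 count at E9.5 against 27 at E5, a ratio of E5 over E9.5 of 28.5 with a 95% counting interval of 4.70 to 1167. QRFPR fell by 2.15 ± 0.50 in left (0.0021) and 1.68 ± 0.61 in right (0.036). DRD3, a Gi-coupled dopamine receptor gene, averaged 1.71 ± 0.450 CPM at E9.5 against 4.81 ± 0.493 CPM at E5 in left and 2.51 ± 0.675 against 8.03 ± 1.21 CPM in right, and DRD5, a Gs-coupled one, 2.52 ± 1.63 against 5.70 ± 0.404 CPM in left and 2.53 ± 0.451 against 5.12 ± 1.04 CPM in right. The DRD5 fall in left was 1.18 on the log2 scale and -1.84 without E9.5 left library 2.

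The nicotinic gene CHRNA7, whose subunit forms a channel on its own, rose on both sides. It averaged 16.8 ± 4.66 CPM at E9.5 against 3.56 ± 0.781 CPM at E5 in left and 22.1 ± 7.71 against 6.04 ± 3.09 CPM in right (SD, n = 3 each). The log2 change was 2.24 ± 0.37 (SE) in left (edgeR adjusted p = 7.3e-05) and 1.86 ± 0.36 in right (0.00035), and both calls were kept with any 1 library left out. CHRNA6, a neuronal nicotinic subunit gene, averaged 1.23 ± 0.406 CPM at E9.5 against 0.482 ± 0.230 CPM at E5 in left and 1.60 ± 0.198 against 0.768 ± 0.324 CPM in right, and CHRM5, for a Gq-coupled muscarinic receptor, 0.695 ± 0.246 against 0.104 ± 0.0351 CPM in left and 0.510 ± 0.124 against 0.106 ± 0.0760 CPM in right. The E5 sum for CHRM5 was 5 counts on each side.

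Some genes were called over time on 1 side, which does not show that the sides differ. HTR1B was called in opposite directions, with a log2 change of 2.33 ± 0.16 (SE) in left (edgeR adjusted p = 1.1e-09) and -0.55 ± 0.16 in right (0.010), the right value being -0.45 without E5 right library 3 (0.057). HTR1E fell in right by 2.35 ± 0.27 (8.7e-07) and had a change of -0.08 ± 0.24 in left (0.84). DRD4 rose in left by 3.79 ± 0.50 (5.1e-06), with 0.38 ± 0.53 in right (0.61). NPY4R rose in left by 2.79 ± 0.61 (0.0012), with -1.10 ± 0.66 in right (0.20). CHRNA3 rose in left by 2.67 ± 0.78 (0.011) and by 1.73 without E9.5 left library 3 (0.10), the library with the highest chromaffin sum at that stage. GALR1 fell in right, with 2 counts at E9.5 against 22 at E5, a ratio of E5 over E9.5 of 11.6 with a 95% counting interval of 2.85 to 101.8, and a log2 change of -3.30 that read -5.98 without E9.5 right library 3.

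Others called higher at E9.5 on 1 side were HTR6 in left, at 2.47 ± 1.32 CPM against 0.918 ± 0.212 CPM at E5, and in right ADRB1, at 2.76 ± 0.985 against 1.17 ± 0.127 CPM, and ADRA1D, at 4.55 ± 2.13 against 2.18 ± 0.488 CPM (SD, n = 3 each). Called lower in left and not in right were also ADRA1A, HTR2C and HTR7, with means at E9.5 of 0.325, 1.64 and 2.93 CPM against 1.26, 3.75 and 5.71 CPM at E5. Called lower in right alone were also CHRM2, CHRM3, ADRA2B, NPY5R and DRD2, with means at E9.5 of 7.88, 5.76, 2.86, 2.92 and 0.149 CPM against 44.4, 9.24, 4.92, 4.71 and 1.23 CPM at E5. CHRM2, the muscarinic receptor that slows the heart, was not called in left, where its means were 9.55 ± 8.14 CPM at E9.5 and 25.8 ± 2.61 CPM at E5, a log2 change of -1.44 ± 0.57 (SE, edgeR adjusted p = 0.058).

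Several of the smaller changes over time did not survive the loss of 1 library. In left these were HTR6 without E5 library 1, 2 or 3 or E9.5 library 1 (log2 change 1.25, 1.36, 1.58 and 0.86), HTR7 without E5 library 2 or E9.5 library 1 (-0.94 and -0.90), CHRNA6 without E5 library 1 or E9.5 library 1 or 2 (0.996, 1.12 and 1.24), and CHRM5 without E5 library 2 or E9.5 library 3 (2.39 and 2.36). In right, CHRM5 missed the threshold whichever library was left out (1.89 to 2.84, edgeR adjusted p = 0.054 to 0.15), and ADRB1 without any library other than E9.5 library 2 (0.91 to 1.27, 0.076 to 0.17). CHRNA6 did so without any other than E5 library 3 (0.72 to 1.06, 0.07 to 0.20), and ADRA1D without any other than E9.5 library 1 (0.59 to 1.18, 0.052 to 0.28). ADRA1B did so without E5 library 1 or 2 or E9.5 library 1 or 3 (-1.12, -1.03, -0.79 and -0.95), and its change was -1.84 without E9.5 library 2. ADRA2B did so without E5 library 1 or 3 or E9.5 library 1 or 2 (-0.73, -0.82, -0.77 and -0.71), and NPY5R without E5 library 2 or 3 or E9.5 library 2 (-0.65, -0.72 and -0.60). QRFPR did so without E5 library 2 or 3 or E9.5 library 2 or 3 (-1.57, -1.63, -1.49 and -1.85), and DRD5 without E5 library 2 or E9.5 library 2 or 3 (-0.93, -0.99 and -0.98). For DRD2 the change of -3.05 was -5.11 without E9.5 right library 1.

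**Figure D5:**
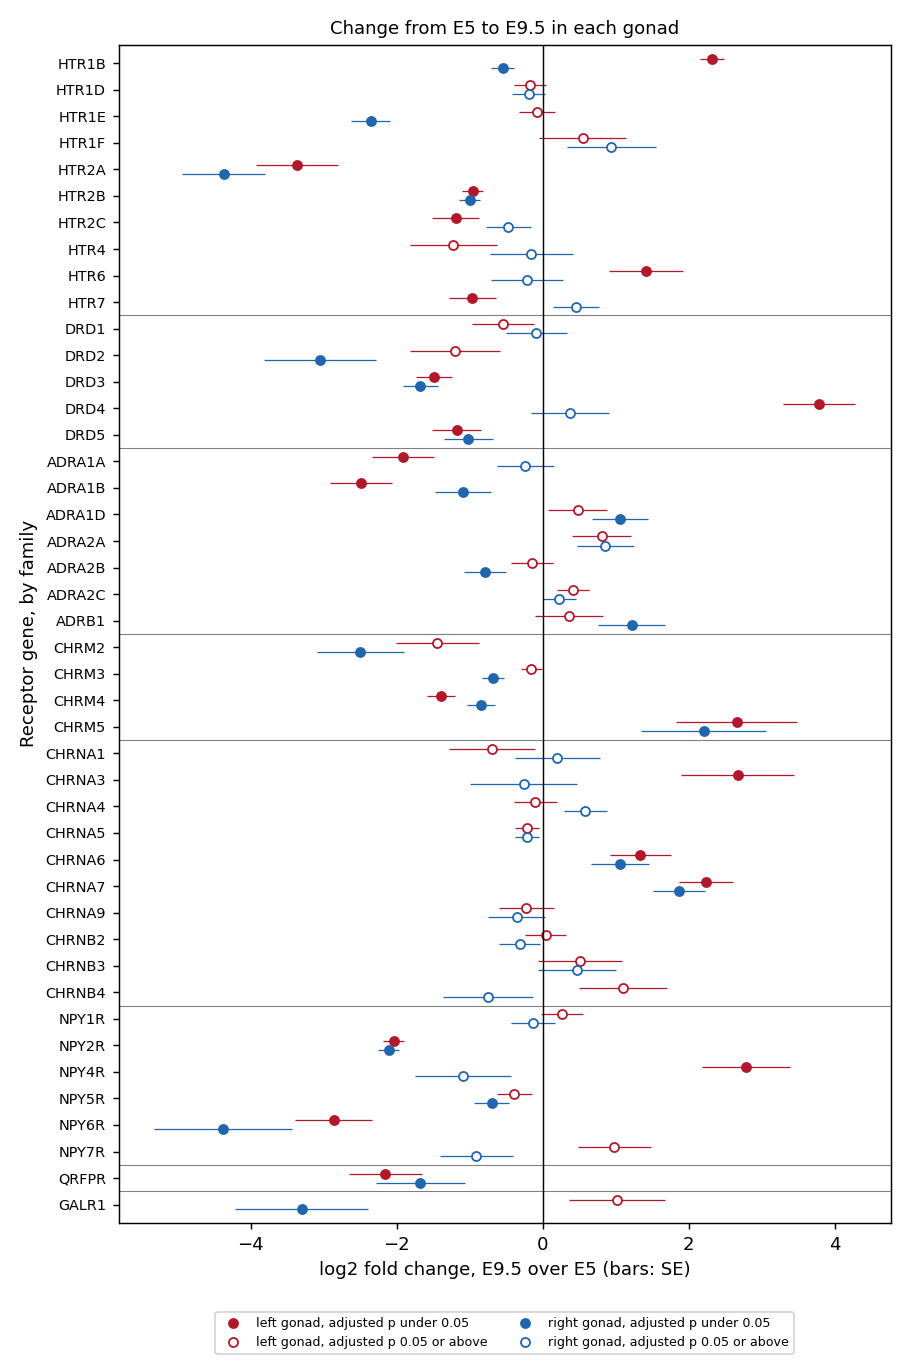
The log2 fold change of E9.5 over E5 for the receptor genes (rows, by family), with a point for the left gonad in red and 1 for the right gonad in blue, bars for the SE, and filled points where the adjusted p is under 0.05. More filled points lie left of 0 than right of it on each side, HTR1B has filled points on opposite sides of 0, and NPY2R has its points nearly on top of each other.

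An F test over all 4 stages called 24 members in left, where 39.7% of all genes were called, and 22 in right, against 45.2% of all genes. On both sides it called 16 members, and the share of all genes called on both sides was not worked out. The F test picked up genes that peaked or dipped at a middle stage. HTR2C, a Gq-coupled serotonin receptor gene, peaked at E6.5 on both sides, with left means of 3.75, 9.65, 3.43 and 1.64 CPM and right means of 4.21, 10.8, 5.52 and 3.04 CPM at E5, E6.5, E8 and E9.5 (F test, edgeR adjusted p = 1.4e-05 in left and 0.00031 in right). HTR1E peaked at E8 in left, at 39.1 ± 3.74 CPM. NPY7R averaged 0.396, 0.961, 1.69 and 0.788 CPM over the stages in left (0.011) and missed the threshold without E5 left library 1 (0.0501) or E8 left library 2 (0.063). CHRNB4 in right had 10.6, 10.5 and 1.52 CPM at E6.5, where the low library was the one with the high mesonephros sum, and between 1.51 and 3.67 CPM at the other stages.

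CHRNA1, the alpha subunit gene of the muscle nicotinic receptor, had a stage call in left that lay close to the threshold. It was at 6.41 CPM in E6.5 left library 3, where 9 skeletal muscle genes summed to 84.5 CPM against 14.96 to 27.2 CPM in the other 23 libraries. The F test in left (edgeR adjusted p = 0.046) read 0.54 without that library, and it also passed 0.05 without 8 of the other 11 left libraries (0.058 to 0.092). CHRND and CHRNG, further muscle subunit genes that fell short of membership, had 23 and 19 counts there out of 46 and 47 in all 24 libraries.

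The threshold on counts left out 10 of the 55 named genes. These were ADRB3, CHRNA2, CHRNA10, CHRND, CHRNG, GALR2, GALR3, HTR1A, HTR3A and HTR5A, of which CHRNG reached 10 counts in 2 libraries and ADRB3, CHRND, GALR2 and HTR5A in 1. Just inside, CHRM5 and GALR1 did so in 6 libraries and CHRNB3 and NPY4R in 8. Members that met the threshold in under 3 right libraries were NPY6R, NPY4R, GALR1 and CHRM5, with 1 right library each and with 10, 7, 5 and 5 left ones. Members called in no comparison at all, the F tests over the stages included, were CHRNA9, CHRNB2, CHRNB3, DRD1, HTR1D, HTR1F and HTR4. CHRNA1, CHRNA4 and NPY7R were called by an F test alone.

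The enzymes and transporters that make and clear these ligands were also measured. Of 18 tested genes for amine synthesis, transport and breakdown, 8 were higher in left at E8 and none lower (7.54% and 6.71% of all genes). Among them were SLC18A1 (log2 difference 3.98 ± 1.09, SE), PNMT (3.70 ± 0.85), TH (3.60 ± 0.72) and DBH (3.35 ± 0.82), with edgeR adjusted p of 0.019, 0.0067, 0.0026 and 0.010. The last 3 are enzymes of the path from tyrosine to adrenaline. TH was at 7.55, 17.9 and 26.3 CPM in left and 1.64, 1.48 and 1.13 CPM in right, with the left libraries in the same order as for the chromaffin sum, of which all 4 named genes are part. At E5 the 1 call was HNMT, lower in left (-0.85 ± 0.19, 0.018). At E6.5 edgeR called 0 of the 18, with 4 at an unadjusted p under 0.05 and 1 with DESeq2. At E9.5, SLC6A2, the noradrenaline transporter gene (1.11 ± 0.24), and SLC18A2, the vesicle transporter gene (1.30 ± 0.35), were higher in left, while SLC6A4, the serotonin transporter gene (-0.96 ± 0.28), and MAOB (-0.74 ± 0.24) were lower. TPH1, the enzyme gene for serotonin synthesis, fell by 2.37 ± 0.29 in left (2.3e-06) and by 1.64 ± 0.29 in right (0.00015) between E5 and E9.5.

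For acetylcholine, 8 genes were tested. CHAT, which makes it, rose between E5 and E9.5 by 2.45 ± 0.51 (SE, log2) in left and 2.42 ± 0.50 in right (edgeR adjusted p = 0.00081 and 0.00069), and SLC18A3, which loads it into vesicles, rose by 2.31 ± 0.24 and 2.34 ± 0.24 (1.9e-07 and 2.2e-07). SLC5A7, which brings choline back into the cell, went the opposite way, at 4.48 CPM at E9.5 against 51.8 CPM at E5 in left and 1.91 against 24.7 CPM in right. BCHE, a cholinesterase gene, was lower in left at E5 (-0.79 ± 0.16), E6.5 (-0.57 ± 0.15) and E8 (-0.48 ± 0.15), with edgeR adjusted p of 0.0061, 0.048 and 0.041. SLC5A7 was higher in left at E8 (2.95 ± 0.61, 0.0034), and at E9.5 edgeR called 0 of the 8 on side, with 3 at an unadjusted p under 0.05 and 1 with DESeq2.

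Few of the genes for the peptides that these receptors bind could be tested. QRFP had 0 counts in all 24 libraries, where 3 counts over the summed totals would be 0.00754 CPM, and PYY had 48 counts in all, so only NPY and GAL were tested. NPY averaged 11.02 CPM at E9.5 against 1.36 CPM at E5 in left (log2 change 3.02 ± 0.37, SE, edgeR adjusted p = 2.3e-06) and 7.09 against 1.66 CPM in right (2.09 ± 0.36, 0.00013). It was not called on side at any stage. GAL was higher in left at E8, at 23.9, 47.8 and 70.1 CPM in left and 6.18, 2.57 and 8.12 CPM in right (3.07 ± 0.62, 0.0028), with the left libraries again in the order of the chromaffin sum.

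Among 19 tested genes for receptor assembly and desensitisation, the regulators of G protein signalling RGS4 and RGS7 were higher in left at E8 (2.57 ± 0.36 and 1.58 ± 0.33, SE, log2) and at E9.5 (1.82 ± 0.35 and 3.03 ± 0.35), with edgeR adjusted p of 0.00010, 0.0036, 0.0025 and 1.8e-05. GRK5, a receptor kinase gene, was lower in left at E5 (-0.63 ± 0.15) and E9.5 (-0.64 ± 0.15), at 0.021 and 0.0091. At E6.5 edgeR called 0 of the 19, with 4 at an unadjusted p under 0.05 and 2 with DESeq2. RGS5, which is also in a list of smooth muscle and pericyte genes, had the largest change over time, 5.23 ± 0.32 in left and 5.04 ± 0.31 in right. The part of those cells in this change was not tested. Of 23 tested genes for G proteins and second messengers, edgeR called 0 on side at E5 and at E6.5, with 0 and 3 at an unadjusted p under 0.05 and 0 with DESeq2 at either stage. At E8 and E9.5 PDE4D (-0.89 ± 0.16 and -0.48 ± 0.16) and PRKACA (-1.84 ± 0.61 and -2.30 ± 0.62) were lower in left and PLCB4 (0.63 ± 0.13 and 0.40 ± 0.13) was higher, and GNAZ (1.08 ± 0.35) was higher at E8. Over time this list had 8 calls in left, 2 higher and 6 lower (34.2%, 18.2% and 16% of all genes). In right it had 9, 3 higher and 6 lower (37.5%, 21.5% and 16.1% of all genes).

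The genes whose log2 CPM ran most like that of a receptor over the 24 libraries were looked up among 12626 genes with a symbol and at least 2 CPM in some group. For NPY6R they included ENC1, ARFGEF3, KRT7 and TRIM2, with Pearson correlations of 0.928, 0.924, 0.922 and 0.918. KRT7 is in the surface epithelium list. For QRFPR they included FLVCR1, LOXHD1, NPY6R and TTPA (0.861, 0.846, 0.842 and 0.830). For HTR1B they were SHISA6, KIAA1324L, CAMK2N1, NTN1 and IRF1 (0.912, 0.910, 0.909, 0.896 and 0.887), and for DRD4 NTN1, IRF1, TOM1L1, TNFRSF6B and SHISA6 (0.915, 0.915, 0.911, 0.902 and 0.9). NTN1, the gene for the guidance protein netrin 1, averaged 1.11, 12.99, 92.8 and 80.9 CPM over the stages in left and 1.65, 3.32, 2.73 and 2.86 CPM in right. The points share side, stage and library, and the correlations are descriptions of these libraries.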

How the data were processed

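Poly(A) RNA of 24 libraries was measured as read counts per gene. The deposited count table holds whole-number counts that were not normalized, and per the submitters' processing notes the authors used Trim Galore 0.6.7, STAR 2.7.10a, HTSeq 2.0.0 and the build GRCg6a. Annotation, counting mode and strand setting were not given in the sources used here, so reads of overlapping or antisense genes may not be told apart. Libraries within each group differed by more than sampling noise (chi-square over its degrees of freedom 8.36 to 63.0), and no library was merged.

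Genes were kept with filterByExpr (minimum count 10, minimum total 15). Counts were scaled with TMM and fitted with 1 mean per group over 24 libraries (edgeR 4.0.16 quasi-likelihood, limma 3.58.1, R 4.3.3; biological coefficient of variation 0.212). P-values were adjusted over 16694 genes (Benjamini-Hochberg, threshold 0.05). The SE is the log2 fold change over the square root of F. The fit was tested on simulated data. Left and right libraries of a stage share replicate numbers, and the labels do not say what a number marks. The correlation of same-numbered libraries' deviations from their group means was over 0.1 in all 3 pairs at E5 (0.351, 0.357 and 0.524) and at E9.5 (0.275, 0.422 and 0.313), but not at E6.5 (-0.162, 0.532 and 0.12) or E8 (-0.0232, 0.129 and 0.0433). Values with the number as a block are therefore given beside results at E5 and E9.5 whose call they change. Calls that the block changed at E6.5 and E8 are named too. Ratios of few counts have exact 95% intervals. Alternatives were DESeq2 1.42.0, RLE size factors, no filter, a replicate block and only the groups compared. Others left out each library in turn, or E6.5 left library 3 and E8 right library 3 together. The latter pair was highest in ALB, is called the libraries with liver transcripts here, and was not alone in high liver sums.

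Members and gene lists were chosen with earlier results of these data known. Values in every library are given for NPY6R, QRFPR, HTR1B, DRD4 and each member called on side, at the stages of its calls at least. Values of 1 member and of 1 gene matched by correlation are not reported here, though counts include them. Members called over time are given by means, other lists by up to 4 called genes a comparison, and the 5 genes most like each of the 4 receptors by correlation. Values of CHRM2, HTR4, CHRNA1, CHRND, CHRNG and CHGA beyond this were chosen after they were seen. Symbols of all 45 members matched RefSeq (GRCg7b), used for gene order only.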

Additional observations from a re-analysis of the deposited data

Results flagged for a closer look

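The left-right difference of 4 receptor genes was not the same at E9.5 as at E5, by edgeR's test of the difference itself with Benjamini-Hochberg adjustment over all genes tested. For NPY4R the change was 3.88 on the log2 scale (edgeR adjusted p = 0.022). Every left library was above every right one at E9.5, with 1.91 ± 0.320 CPM against 0.253 ± 0.166 CPM in right (SD, n = 3 each). For DRD4 the change was 3.41 (0.013), with 18.7 ± 4.58 CPM in left and 1.24 ± 0.352 CPM in right at E9.5. For HTR1B it was 2.87 (4.8e-07), with 309 ± 39.3 CPM in left and 58.5 ± 10.99 CPM in right. For HTR1E it was 2.28 (0.0015), with 22.8 ± 4.73 CPM in left and 3.61 ± 1.55 CPM in right. Between E5 and E9.5 HTR1E and HTR1B fell in the right gonad, and NPY4R, DRD4 and HTR1B rose in the left one. NPY4R met the threshold on counts in 7 left libraries and 1 right one. Its call was lost without E5 right library 2 or E9.5 left library 1, and with only the groups compared. The DRD4 call was lost without E5 right library 1. No explanation was tested.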

How the results depend on the processing

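Of 87 calls of a member in a comparison with a direction, 44 were kept under every setting in which the gene was tested, and none changed sign. With only the groups compared 59 were kept and 22 lost. The rest were not tested there, since the gene did not pass the filter on low counts. These were NPY6R and GALR1 on side at E9.5 and over time in right, and CHRM5 over time on both sides. Calls lost were 2 with DESeq2, 1 with RLE size factors, 6 without the filter on low counts, 22 with only the groups compared and 5 without the libraries with liver transcripts. The largest shift of the median of all genes was 0.0616 (log2). The count of members called at E5 was 5 in the reported fit and 8 with DESeq2, and at E6.5 it was 5, against 8 with DESeq2, 1 with only the groups compared and 3 without the libraries with liver transcripts. With only the groups compared the count was 7 at E9.5 (reported 15) and 13 over time in right (reported 22). Members that did not pass the filter in that setting count there as not called. The fewer libraries of that setting leave fewer degrees of freedom, and the other causes were not tested. Shares over all genes for these settings and for 1 library left out are not given, so the counts describe the members alone. With 1 library left out the counts ran from 3 to 5 at E5, 2 to 5 at E6.5, 9 to 13 at E8, 7 to 16 at E9.5, 18 to 22 over time in left (reported 21), 14 to 19 over time in right, 3 to 5 for the change in side difference (reported 4), 18 to 24 for any stage in left and 19 to 24 in right. NPY6R at E5 and E6.5, NPY2R at E6.5 and E9.5, NPY5R at E8 and the NPY4R change in side difference missed the threshold with only the groups compared (edgeR adjusted p = 0.053, 0.099, 0.090, 0.055, 0.051 and 0.073).

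With the number as a replicate block the counts were 9 at E5, 7 at E6.5, 17 at E8 and 17 at E9.5. Among all genes 4.88%, 5.16%, 20.4% and 20% were called at these stages, against 2.94%, 3.24%, 14.3% and 13% without the block. The count was 5 for the change in side difference (4.15% of all genes, 2.2% without the block). In these side tests the block was the number within a stage, but in the tests over time it was the number across all stages. The labels do not say that a number marks anything shared between stages. The count was 22 over time in each gonad, and 23 and 22 for any stage in left and right. The block lost 2 calls, ADRA2A at E9.5 (-1.17, edgeR adjusted p = 0.0554) and QRFPR at E6.5 (2.44, 0.0539), and no other call with a direction. At E6.5 it gained ADRA1D, NPY5R and CHRNA4 (0.81, 0.0251), and at E8 ADRA1D and ADRA2C. As a hint from the data, 10 of 12 left libraries correlated best with the right library of their number.

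Depth limits members with few counts: in their lowest group of 3 libraries NPY6R had 1 count, GALR1 2, CHRM5 5, ADRA1A 6, QRFPR 7, DRD2 7, HTR2A 9 and NPY4R 12.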
